A study of Mus musculus with 6 samples.

Results

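The genes described here are 9 transcription factors known from the diencephalon, the subthalamic region and neighbouring forebrain: Barhl1, Barhl2, Six3, Sim1, Dbx1, Foxp1, Foxp2, Emx2 and Tbr1. They were taken by exact gene symbol from the array annotation, which gave 25 probe sets for the 9 genes, of 45037 probe sets for 18201 genes in all. Messenger RNA was measured on 6 microarrays, 3 for each of 2 sorted populations of the ventral mesencephalon of mouse embryos at day 12.5. The first, called positive cells, was sorted for GFP from Ngn2-GFP embryos of strain CD1/129, whose GFP follows Neurog2 (Ngn2), a proneural gene, and is described as containing the midbrain dopaminergic progenitors. The second, called negative cells, was sorted for lack of GFP from Lmx1a-GFP embryos of strain C57BL/6, whose GFP follows Lmx1a, a factor that specifies dopaminergic progenitors, and served as the non-dopaminergic population. Reporter line, strain and sort gate therefore changed together with the group on every array and cannot be told apart.

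The diencephalon lies directly in front of the midbrain. In mouse embryos its caudal floor plate shares Lmx1a and Foxa2 with the floor plate that makes dopaminergic neurons, and it gives rise to subthalamic neurons, so transcription factors of the 2 regions are used to tell these lineages from each other. Some factors named for the forebrain are also used in the midbrain, where several of them mark neurons that make GABA or glutamate. A change in the average of sorted cells can come from fewer cells that express a gene or from less RNA per cell, and the arrays cannot tell these apart.

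Signals are the deposited MAS5 intensities, in arbitrary units, and levels of different probe sets are not on 1 scale. The filter level is the 40th percentile of each array, which lay between 10.2 and 15.8, and the tests took in probe sets above this level on 3 or more arrays. Each gene was represented by its brightest tested probe set. Differences are positive minus negative on the log2 scale. They came from 1 limma fit over all 12047 tested genes with n = 3 arrays per group, are given with their standard error (SE), and were called at p under 0.05 after adjustment over all these genes. As a check of the labels, Lmx1a was higher in positive cells by at least 9.65-fold, a direction set by the gate. It exceeded the filter level on the positive arrays alone, so its adjusted p of 0.00167 by limma is given as a description. Neurog2 averaged 591 in positive and 352 in negative cells and did not pass the test (0.75, SE 0.21, adjusted p = 0.155 by limma). Its positive arrays all lay above the negative arrays, where 8.21% of all tested genes did so. The midbrain factor En2 was bright in both populations, at 943 to 1104 in positive and 765 to 1031 in negative cells. En1, another midbrain factor, was higher in positive cells (1.36, SE 0.21, adjusted p = 0.00732 by limma). The call of En1 was lost without positive replicate 2 (adjusted p = 0.057), without a filter on dim probe sets (0.0592) and without a variance trend (0.0853). Positive replicates 1 and 2 stood apart in the hybridization spike-in controls, where their means were 2293 and 2352, while positive replicate 3 had 5018 and the negative arrays had 4254 to 6560. Comparisons on the higher spike-in side therefore rest on positive replicate 3 alone against the 3 negative arrays. The spread there comes from the negative arrays, and the 1 positive array is assumed to vary like them. Positive replicates 1 and 2 were also lower in 18S ribosomal RNA signal, at 3713 and 3696 against 7241 to 9276 on the other arrays. Their ratio of 3′ to 5′ signal of Gapdh was 4.41 and 4.73, against 5.94 to 9.21. The cause of these differences was not tested.

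Six3 and Barhl2 fell in positive cells, and no other member passed the test in either direction. Of the 9 genes, 8 had a tested probe set. By this call 2 of 8 changed, where 1.06% of all tested genes did: 2 of 8 were lower, where 0.639% of all tested genes were, and 0 of 8 were higher, where 0.423% were. The values of the 8 genes were negative for 6 and positive for 2, with a median of -0.59 against 0.03 over all tested genes. At an unadjusted p under 0.05 there were 3 members, the third being Emx2, where 10.8% of all tested genes were. The positive arrays all lay under the negative arrays for 4 members, Six3, Barhl2, Barhl1 and Emx2, where 7.25% of all tested genes did so. For 0 members did they all lie above, where 8.21% did, so that 4 of 8 had no overlap in either direction, where 15.5% did. The members were chosen with results of these data known, so their share is a description.

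**Figure D1:**
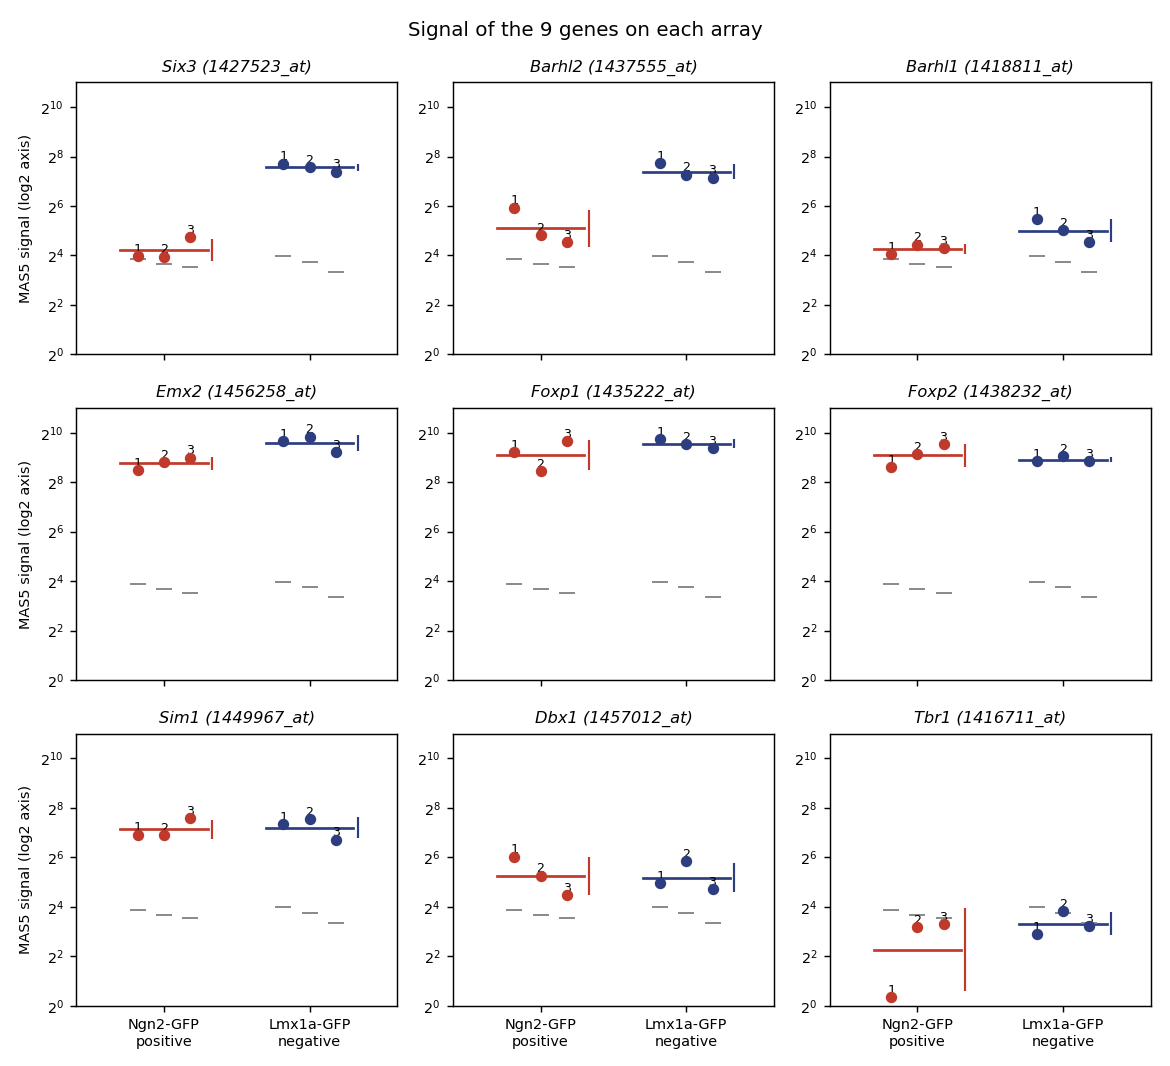
MAS5 signal (log2 axis) of the brightest probe set of each of the 9 genes on the Ngn2-GFP positive arrays (red, left) and the Lmx1a-GFP negative arrays (blue, right), numbered by replicate, with the geometric mean as a horizontal line, 1 SD of the log2 values as a vertical bar and the filter level of each array as a grey dash. The groups are widest apart for Six3 and Barhl2, and Tbr1 lies at or under the filter level on 5 of 6 arrays.

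Six3 is a homeodomain factor needed for the anterior forebrain and the eye. Its signal was 15.7, 15.4 and 26.5 in positive cells, against 209, 191 and 168 in negative cells. Positive replicates 1 and 2 lay just above the filter levels of the positive arrays, which were 14.6, 12.7 and 11.6, and replicate 3 lay further above, while the negative values were tightly grouped. The log2 fold change was -3.34 (SE 0.33, 95% interval -4.06 to -2.63, adjusted p = 0.000182 by limma), so that the geometric mean was 18.6 in positive and 188 in negative cells. Six3 was 13th by p-value among all tested genes, and it passed under all 17 alternative settings, with adjusted p at most 0.0192. On the higher spike-in side alone the difference was -2.83, and with log2 of the signal plus 32 it shrank to -2.11. The other probe sets of Six3 were dim and were not tested. Probe set 1426637_a_at had signals of 1.92, 1.66 and 4.50 in positive cells, against 11.5, 17.5 and 11.4 in negative cells, again without overlap. Probe set 1426638_at had 8.87, 8.35 and 12.0 in positive cells, against 7.55, 6.20 and 11.3 in negative cells, with overlap. The 3 probe sets thus did not give 1 direction, and the call rests on the brightest.

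Barhl2 and Barhl1 are BarH-like homeodomain factors, and Barhl1 marks subthalamic and mammillary neurons in the mouse. Barhl2 had signals of 61.3, 28.3 and 23.1 in positive cells, against 211, 154 and 142 in negative cells. No positive array reached the lowest negative one, and the positive arrays differed more among themselves (SD 0.74 on the log2 scale) than the negative arrays did (SD 0.30). The log2 fold change was -2.28 (SE 0.37, 95% interval -3.09 to -1.47, adjusted p = 0.0093 by limma), a geometric mean of 34.2 in positive and 166 in negative cells. Its call was lost without negative replicate 1 (-2.11, adjusted p = 0.0616), without a filter on dim probe sets (0.11) and without a variance trend (0.0882). It held only narrowly with the spike-in side as a block (0.0473), without positive replicate 2 (0.0469) and without negative replicates 2 or 3 (0.0418 and 0.042). The value of Barhl2 was negative under all 17 alternatives. On the higher spike-in side alone it was -2.85 (adjusted p = 0.0188).

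Barhl1 was much nearer to the filter level. Its tested probe set gave 16.7, 21.6 and 19.6 in positive cells, against 44.2, 32.2 and 23.0 in negative cells. The groups did not overlap, but the highest positive and the lowest negative array were close, and the log2 fold change of -0.74 (SE 0.46, 95% interval -1.74 to 0.26) missed the threshold with adjusted p = 0.582 by limma. A second, untested probe set, 1418812_a_at, had 4.72, 6.57 and 9.34 in positive cells, against 14.4, 30.6 and 13.5 in negative cells. It exceeded the filter level on 2 negative arrays and no positive array, which bounds the difference at 1.40-fold or more. Both probe sets of Barhl1 therefore had the sign of Barhl2, at values whose interval includes 0 for the tested one.

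The sequences before the gene start of the 2 genes that passed are shown with any E-boxes and CCAAT boxes marked. E-boxes are the sites bound by proneural factors such as Neurog2. They are the 250 bases 5′ of the start in RefSeq's table for GRCm38.p6, with capitals marking an E-box (CANNTG) or a CCAAT box (CCAAT) on either strand. Six3 is at chr17:85620584-85620833 on the plus strand and Barhl2 at chr5:106458167-106458416 on the minus strand.
Six3: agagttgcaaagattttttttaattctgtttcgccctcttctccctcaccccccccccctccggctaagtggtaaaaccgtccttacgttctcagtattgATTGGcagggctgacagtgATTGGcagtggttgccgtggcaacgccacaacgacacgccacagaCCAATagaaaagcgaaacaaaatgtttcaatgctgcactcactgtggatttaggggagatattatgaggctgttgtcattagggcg
Barhl2: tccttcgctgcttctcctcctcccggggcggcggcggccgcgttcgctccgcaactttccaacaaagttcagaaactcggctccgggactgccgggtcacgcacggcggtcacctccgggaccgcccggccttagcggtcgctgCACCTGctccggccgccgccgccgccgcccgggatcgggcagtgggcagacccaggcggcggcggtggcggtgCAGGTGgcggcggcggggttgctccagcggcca

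The 2 windows share neither motif. Six3 had 3 CCAAT boxes and 0 E-boxes, whereas Barhl2 had 2 E-boxes and 0 CCAAT boxes. The windows also differed in base composition, with 48.8% G and C in Six3 and 74.8% in Barhl2, against a median of 52.4% over all 32851 windows. Such windows were found for 8 of the 9 genes, 11 windows in all, with Foxp2 the exception. E-boxes were in 8 of these 11 windows and in 66.2% of all windows, and CCAAT boxes in 4 of 11 and in 33.8% of all windows. A homeodomain core (TAATTA, read on both strands) was in 2 of 11, those of Tbr1 and 1 of the 3 of Foxp1, and in 4.84% of all windows. These matches describe the letters and not binding.

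Emx2 is a homeodomain factor that patterns the cerebral cortex and is also made in the diencephalon. It was bright in both populations, with signals of 359, 452 and 511 in positive cells, against 814, 920.4 and 597 in negative cells. All 3 positive arrays lay under all 3 negative arrays. The log2 fold change of -0.81 (SE 0.23, 95% interval -1.30 to -0.32) had an unadjusted p of 0.00351 and missed the threshold after adjustment by limma (adjusted p = 0.167). It missed it under every alternative, was nearest without positive replicate 3 (-0.93, adjusted p = 0.0548), where the 2 remaining positive arrays were both on the lower spike-in side, and was -0.58 on the higher spike-in side alone.

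Foxp1 and Foxp2 are forkhead factors of many neuron types, Foxp2 among them in the thalamus and the subthalamic nucleus. They had the most probe sets, 8 for Foxp1 and 6 for Foxp2. The brightest probe set of Foxp1 gave 590.3, 349 and 809 in positive cells, against 860.4, 739 and 669 in negative cells, and positive replicate 3 overlapped with the negative arrays. Its log2 fold change was -0.45 (SE 0.28, 95% interval -1.05 to 0.15, adjusted p = 0.575 by limma), and it turned to 0.11 on the higher spike-in side alone. Of the 7 tested probe sets of Foxp1, 4 had negative and 3 positive values, between -0.45 and 0.34, with a median of -0.08. The second brightest, 1455242_at, was nearly level, at 350.3, 312 and 371 in positive cells, against 370.4, 365 and 372 in negative cells (-0.10, 95% interval -0.54 to 0.33).

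For Foxp2 the choice of probe set mattered more. The brightest, 1438232_at, gave 389, 564 and 745 in positive cells, against 462, 530.1 and 461 in negative cells, with overlap and a log2 fold change of 0.18 (SE 0.24, 95% interval -0.35 to 0.70, adjusted p = 0.818 by limma). The next, 1440108_at, gave 519, 449.9 and 492 in positive cells, against 333, 355 and 228 in negative cells. All 3 positive arrays were above all 3 negative ones, at 0.70 (SE 0.23, 95% interval 0.21 to 1.19). That probe set had an unadjusted p of 0.00891 and missed the threshold over 27738 tested probe sets (adjusted p = 0.338 by limma).
Probe set 1438231_at, with 359, 471 and 462 in positive cells against 333, 273 and 329 in negative cells, also had groups that did not overlap (0.46, adjusted p = 0.528). Probe set 1422014_at was at 292, 342 and 205 in positive cells, against 211, 76.1 and 187 in negative cells (0.92, adjusted p = 0.443). Of the 6 tested probe sets of Foxp2, 5 had positive values, with a median of 0.58, and none passed. Averaged over its probe sets the gene was at 0.44 (adjusted p = 0.537).

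**Figure D2:**
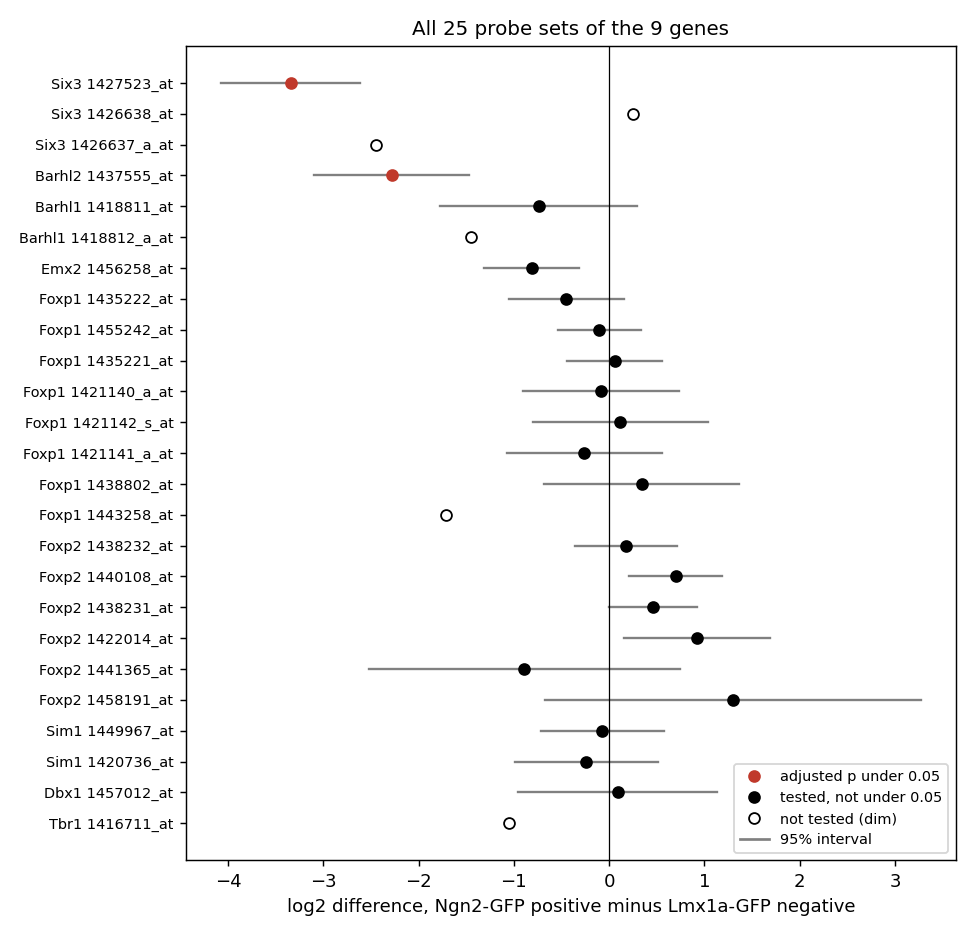
Log2 difference (positive minus negative) of all 25 probe sets with the 95% interval of the limma fit over probe sets for the 20 that were tested (red, adjusted p under 0.05; black, not) and the plain difference of mean log2 signals for the 5 dim ones (open). Only the brightest probe set of Six3 and that of Barhl2 passed, and 5 of the 6 probe sets of Foxp2 lie right of 0.

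Sim1, a bHLH-PAS factor of the neuroendocrine hypothalamus, and Dbx1, a homeodomain factor of neural progenitors, did not differ beyond the spread between arrays. Sim1 had signals of 121, 118 and 192 in positive cells, against 161, 188 and 105 in negative cells, with a log2 fold change of -0.07 (SE 0.29, 95% interval -0.70 to 0.56, adjusted p = 0.955 by limma). Its second probe set, 1420736_at, was at -0.24 (95% interval -0.99 to 0.51). Dbx1 had signals of 65.4, 38.5 and 22.3 in positive cells, against 31.0, 57.1 and 26.4 in negative cells, with a log2 fold change of 0.09 (SE 0.48, 95% interval -0.94 to 1.12, adjusted p = 0.967 by limma). The positive arrays of Dbx1 spread widely, and its interval holds changes of about 1 log2 unit in either direction. Both signs turned on the higher spike-in side alone, to 0.39 for Sim1 and -0.69 for Dbx1.

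Tbr1, a T-box factor of early-born glutamatergic neurons of the cortex, was the 1 member with no tested probe set. Its signal was 1.27, 8.97 and 9.82 in positive cells, against 7.43, 14.2 and 9.36 in negative cells. It exceeded the filter level on 1 negative array and no positive array, so no difference could be measured.

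Of the 25 probe sets of the 9 genes, 20 were tested, and 2 passed where 0.537% of all tested probe sets did. Both were lower, where 0.35% were, and 0 were higher, where 0.187% were. At an unadjusted p under 0.05 there were 5 of 20, where 9.43% of all tested probe sets were. Of the 20, 11 had negative and 9 positive values. The positive arrays lay wholly under the negative ones for 4 of the 20, where 5.98% of all tested probe sets did, and wholly above them for 2, both of Foxp2, where 7.96% did. In this fit over probe sets Barhl2 had an adjusted p of 0.0139. It missed the threshold with the spike-in side as a block (0.0618), without positive replicate 2 (0.0628) without any 1 negative array (0.0605 to 0.0906), without a filter on dim probe sets (0.18) and without a variance trend (0.168).

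**Figure D3:**
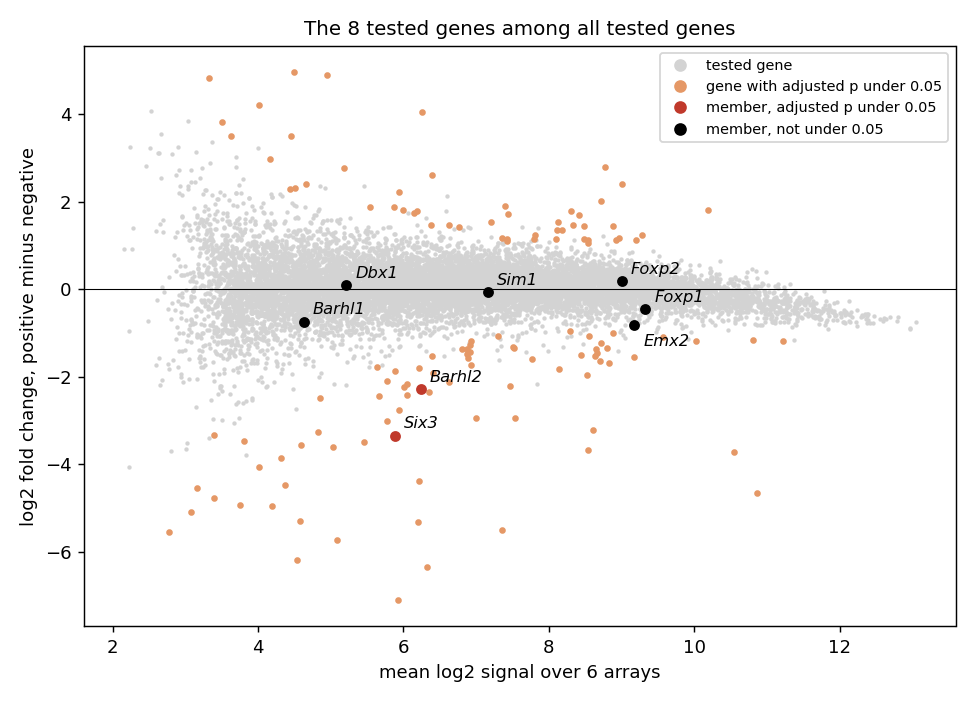
Log2 fold change (positive minus negative) of all 12047 tested genes against their mean log2 signal over 6 arrays, with genes past the threshold in orange and the 8 tested members labelled (red, past the threshold; black, not). Six3 and Barhl2 lie at middle signal well under 0, and Emx2, Foxp1 and Foxp2 are among the brighter genes.

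The profiles most like those of the 2 genes that passed were sought among all tested genes, as the root-mean-square difference of log2 signals over the 6 arrays after centring each gene on its mean. For Six3 the nearest was Tal2, a selector of midbrain GABAergic neurons, at 0.12 log2 units, with signals of 117, 97.1 and 185 in positive cells, against 1412, 1250 and 957 in negative cells. The complement gene C1qb (0.227) and the serotonin transporter Slc6a4 (0.235) followed. For Barhl2 the nearest was Gata3, a gene of the midbrain GABAergic list described below, at 0.19 log2 units. Its signals were 61.2, 31.0 and 24.9 in positive cells, against 209, 150 and 203 in negative cells. Banf2 (0.35) and the macrophage gene Mpeg1 (0.37) followed, neither past the threshold (adjusted p = 0.351 and 0.0866 by limma). Banf2 passed the filter through the negative arrays alone. With 6 arrays in 2 groups, likeness mostly reflects the size of the group difference, and it says nothing of shared control.

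Genes of the surrounding territories were taken from 5 lists, chosen with earlier results of these data known. Of 54 listed genes 30 were tested, and 4 of these were called lower and 1 higher in positive cells, with a median of -0.19. Over all tested genes 0.639% were called lower and 0.423% higher, with a median of 0.03. The 4 lower genes include Eomes, which passed the filter through the negative arrays alone. Another 19 matched probe sets that were too dim to test, 38.8% of the 49 with a probe set, where 33.8% of all genes were not tested. In the subthalamic and mammillary list 1 of 5 tested genes rose, Otp, a homeodomain factor of neuroendocrine hypothalamic neurons. Otp had signals of 619, 489.8 and 504 in positive cells, against 259, 241 and 224 in negative cells (1.15, SE 0.20, adjusted p = 0.0132 by limma). Its call was lost on the higher spike-in side alone (adjusted p = 0.51), without positive replicates 1 or 2 (0.107 and 0.0563) or negative replicates 2 or 3 (0.0536 and 0.0584), and with the mean of its probe sets (0.547). Otp was also the 1 gene of 6 that rose in the hypothalamic list.

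In the thalamic and pretectal list 1 of 12 tested genes fell, where 0.639% of all tested genes did. The 1 was Tcf7l2, a Wnt effector that is strong in the thalamus. It was at 1146, 1247 and 1207 in positive cells, against 2635, 2839 and 2531 in negative cells (-1.15, SE 0.20, adjusted p = 0.0111 by limma). Its call was lost without any 1 array other than positive replicate 3 (adjusted p 0.0549 to 0.0816), on the higher spike-in side alone (0.113) and with the mean of its probe sets (0.29). In the prethalamic list 2 of 3 tested genes fell, the homeodomain factors Meis2 and Pax6. Meis2 had 35.5, 45.3 and 62.0 in positive cells, against 433, 507 and 202 in negative cells (-2.93, SE 0.35, adjusted p = 0.000892 by limma). Pax6 had 97.5, 129 and 44.3 in positive cells, against 397, 447 and 315 in negative cells (-2.22, SE 0.34, adjusted p = 0.00696 by limma). Neither overlapped between the groups. On the higher spike-in side alone Meis2 missed the threshold (-2.51, adjusted p = 0.0803) and Pax6 passed it (-3.11, adjusted p = 0.00271). Meis2 and Pax6 are not limited to the prethalamus, and Dlx1, Dlx2 and Dlx6, which make prethalamic GABAergic neurons, were under the filter level on all 6 arrays, while Dlx5 exceeded it on negative replicate 1 alone (26.3). In the telencephalic list 5 of 6 tested genes did not pass. The other, the T-box factor Eomes, had 2.65, 3.62 and 3.79 in positive cells, against 32.02, 33.8 and 34.0 in negative cells. It exceeded the filter level on the 3 negative arrays alone, so it could be tested only because it differed, and its bound of at least 2.58-fold lower and its adjusted p of 0.0375 are given as a description. That p was 0.0882 without positive replicate 1, 0.0971 without positive replicate 2 and 0.239 on the higher spike-in side. Without a filter on dim probe sets Otp, Tcf7l2, Meis2, Pax6 and Eomes all missed the threshold (adjusted p 0.0592 to 0.11), and without a variance trend Otp, Tcf7l2 and Pax6 did (0.0882 to 0.115). Centring arrays on their median also ended the calls of Otp (0.0957) and Tcf7l2 (0.16). The hypothalamic genes Rax, Six6, Nkx2-4 and Lhx8 were also under the filter level on all 6 arrays.

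Paralogues of the members were mostly too dim to measure. Of 11 with a probe set 4 were tested, and the 1 past the threshold was Eomes, which was tested through the negative arrays alone. Foxp4 was at -0.21 (SE 0.40), Foxp3 at -0.02 (SE 0.52) and Six5 at -0.98 (SE 0.48), none past the threshold. The forebrain paralogues Emx1, Six6, Sim2 and Dbx2 had no tested probe set.

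**Figure D4:**
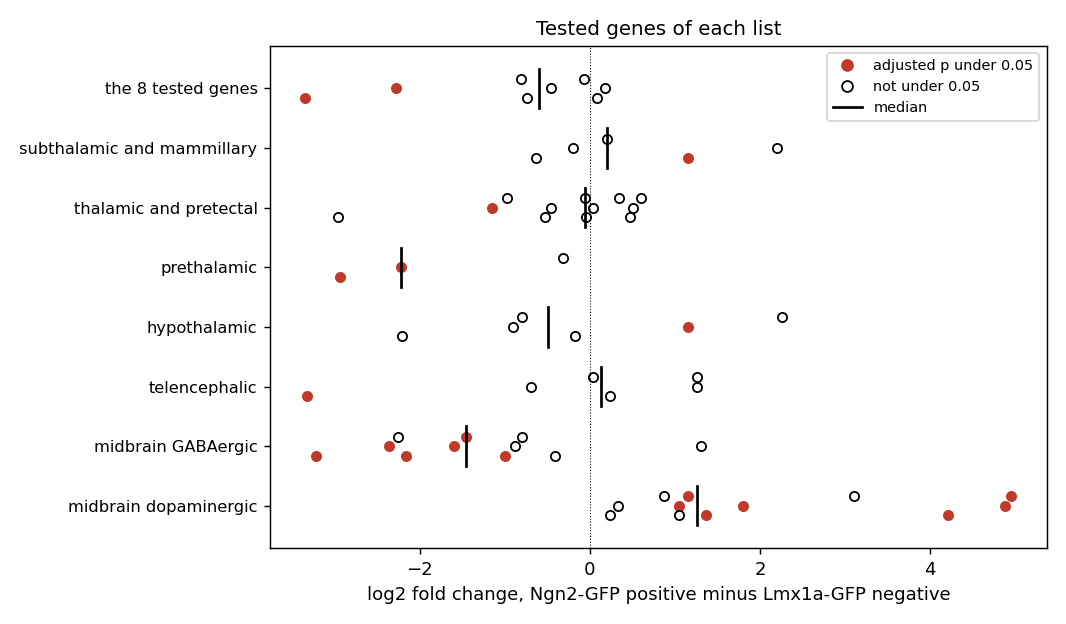
Log2 fold change (positive minus negative) of the 8 tested members and of every tested gene in 5 lists of neighbouring territories and in the midbrain GABAergic and dopaminergic lists, with red points past the threshold, open points not, and the median as a line. The members spread from -3.34 to 0.18, between the medians of the GABAergic list (-1.45) and the dopaminergic list (1.26) for all but Six3 and Barhl2, which lie under the first.

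Side by side with these, 6 of 11 tested genes of a midbrain GABAergic list fell and none rose, with a median of -1.45. Over all tested genes 0.639% were called lower and 0.423% higher. The GABAergic genes that fell included Tal2 (-3.21, SE 0.26), Gata3 (-2.36, SE 0.35) and Gata2 (-1.59, SE 0.24). In a midbrain dopaminergic list 7 of 12 tested genes rose and none fell, with a median of 1.26. Those that rose included Lmx1a, whose direction the gate set, and the midbrain factor En1 (1.36, SE 0.21). Also among them was Th, the rate-limiting enzyme of dopamine synthesis (4.89, SE 0.69, above the filter level on 1 negative array). With the spike-in side as a block En1 missed the threshold (1.07, adjusted p = 0.236 by limma). Without 1 array 4 to 7 GABAergic genes fell and 2 to 6 dopaminergic genes rose, and on the higher spike-in side 3 and 1 did. Without a filter on dim probe sets 1 and 0 did, and without a variance trend 1 and 1. Of the 7 dopaminergic genes called, 2, Lmx1a and Slc6a3, passed the filter through the positive arrays alone. Differences between these lists and the members were not tested.

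Markers of other cell types also moved with the groups. Over all tested genes 0.639% were called lower and 0.423% higher. All 5 tested blood genes fell, with a summed signal of 297 to 618 in positive cells, against 7507 to 14917 in negative cells, led by Hba-x, Hbb-y and Hbb-bh1. Of 5 tested macrophage genes 4 fell, Csf1r, Tyrobp and C1qb among them, with a summed signal of 18.5 to 32.8 in positive cells, against 347 to 714 in negative cells. Of those called, 2 blood and 3 macrophage genes passed the filter through the negative arrays alone, and so could be tested only because they differed. Without any 1 negative array the filter left 3 blood genes, of which 2 passed, and 2 macrophage genes, of which 1 passed, and Csf1r missed the threshold each time (adjusted p 0.221 to 0.536). Without a filter 3 of 7 blood and 2 of 10 macrophage genes passed. None of 3 tested vascular and mesenchymal genes passed the threshold, with the brightest, Rgs5, at -0.03 (SE 0.59). The other 6 of the 9 listed were too dim to test. The part of these cells in the differences of Six3 and Barhl2 was not tested.

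**Figure D5:**
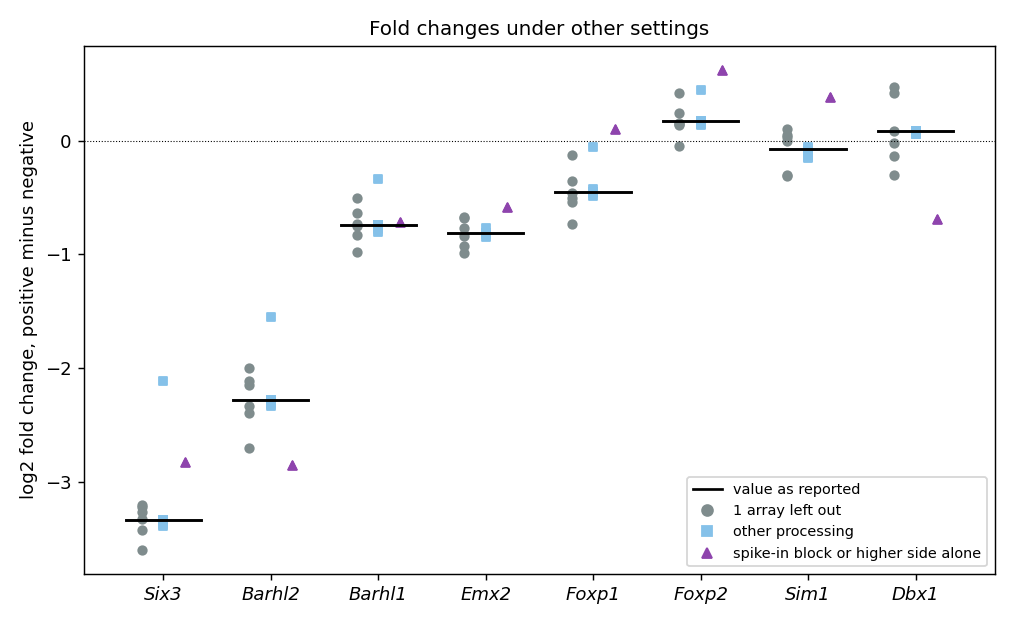
Log2 fold change (positive minus negative) of the 8 tested members as given above (black line) and under each alternative: 1 array left out (grey circles), other processing (blue squares), and the spike-in block or the higher spike-in side alone (purple triangles, equal values). Six3 stays between -3.60 and -2.11 and Barhl2 between -2.85 and -1.55, while Sim1, Dbx1, Foxp1 and Foxp2 cross 0.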

How the data were processed

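The values are the authors' deposited intensity of each of 45101 probe sets, linear and already scaled. The submitters' processing notes list MAS5, limma and R 2.14.2, and give no role for limma. MAS5 combines perfect-match and mismatch probes and scales each array; every array had a trimmed mean of 100, so total RNA content is not measured. No detection calls entered these tests, and dim signals vary widely once logged.

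Leaving out controls, the annotation names 1 gene for 34957 of 45037 probe sets, several for 920 and none for 9160. The log2 of each signal was used, with a floor of 1. The comparison used R 4.3.3 and limma 3.58.1 (lmFit, eBayes with a trend, 4 residual degrees of freedom, two-sided, Benjamini-Hochberg), 1 probe set per gene, and again with each of 27738 tested probe sets as its own feature. The series' design text calls the samples biological replicates. Named genes were all members, per list up to 3 called genes or, with none called, the brightest, the 3 most alike genes for each member called, and the reporter genes. En2 and the genes under other observations were named outside this rule. Others complete a count or a list of dim genes. The members and lists were chosen with earlier results of these data known. A bound ("at least N-fold") sets the dim group at the higher of its signal and the filter level. Spike-in sides were set by the midpoint of the arrays' mean log2 spike-in signal. Alternatives changed the scaling (quantile or median), the filter (none, or the 60th percentile), the offset (32), the trend, the probe sets used per gene, and the blocks (replicate number, spike-in side), or left out arrays. Plots used Python 3.11.15 and matplotlib 3.10.9. Scan dates and slides were not used here.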

Additional observations from a re-analysis of the deposited data

How the results depend on the processing

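There were 17 alternative settings. Six3 passed in all of them and Barhl2 in 14, with no sign change in either; Barhl1 and Emx2 kept their sign in each setting that tested them and passed in none. The count of 128 genes past the threshold changed to 19 without a filter, 42 without a variance trend, 34 with the spike-in side as a block and 40 on the higher spike-in side alone, and ranged from 57 to 417 with 1 array left out. The highest count came from the 2 positive arrays of the lower spike-in side against the negative arrays. Members called lower numbered 1 without a filter (Barhl2 adjusted p = 0.11) and 1 without a trend (0.0882), and 1 to 2 with 1 array left out; member probe sets called numbered 1 without a filter, without a trend and with the spike-in block, and 1 to 2 with 1 array left out. With the spike-in block and on the higher side alone, Sim1 turned to 0.39, Dbx1 to -0.69 and Foxp1 to 0.11. With 1 array left out Sim1 ranged from -0.31 to 0.11 (above 0 without positive replicate 1 or 2 or negative replicate 2), Dbx1 from -0.30 to 0.48 (under 0 without positive replicate 1 or negative replicate 1 or 3) and Foxp2 from -0.047 to 0.42 (under 0 without positive replicate 3). The cause was not tested.

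Same-numbered arrays did not deviate together across genes (correlations of 0.14, -0.10 and 0.03). With 3 arrays per group these correlations cannot decide whether the numbers pair the samples. With the replicate block 127 genes passed, 2 members among them. Barhl1, Tbr1 and the untested probe sets are limited by signal near the filter level.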

Other observations

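A few genes of the neighbouring territories, chosen after their values were seen, had groups that did not overlap and missed the threshold. Among all tested genes 15.5% had no overlap in either direction. Prox1, Uncx, Irx2, Nr2f1 and Hmx2 of these lists also lay wholly lower in positive cells and missed the threshold. Of the genes described next, Foxd1, Pax3 and Hmx3 passed the filter through 1 group alone, so their adjusted p-values by limma are a description. Wnt8b, a Wnt ligand of the developing forebrain, had signals of 46.7, 16.3 and 28.7 in positive cells, against 13.4, 1.18 and 14.1 in negative cells, where 1 array exceeded its filter level (2.20, SE 0.93, adjusted p = 0.409 by limma). Foxd1, a forkhead factor of the hypothalamus, had 27.9, 16.1 and 21.7 in positive cells, against 10.3, 1.61 and 5.30 in negative cells, where it was dim on all 3 arrays (at least 1.65-fold higher, adjusted p = 0.343). Pax3, a dorsal factor of the midbrain and pretectum, was dim on all 3 positive arrays, at 1.09, 6.75 and 7.10, against 45.9, 51.6 and 10.4 in negative cells, the lowest of which barely exceeded its filter level (at least 2.25-fold lower, adjusted p = 0.242). Hmx3, a hypothalamic homeodomain factor, was also dim in positive cells, at 8.16, 3.96 and 6.46, against 49.4, 18.3 and 22.6 in negative cells (at least 2.12-fold lower, adjusted p = 0.227).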
